A study of Homo sapiens with 12 samples.

Results

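Histone genes were read in poly(A)-selected RNA from a conditionally immortalized human podocyte line treated with 3 calcineurin inhibitors. Podocytes are the epithelial cells that wrap the capillaries of the kidney glomerulus. The genes were chosen by name: protein-coding genes whose symbol begins with H1-, H2AC, H2BC, H3C or H4C, together with H2AZ1, H2AZ2, H2AX, H3-3A, H3-3B, MACROH2A1 and MACROH2A2. This gave 81 of the 62262 genes in the table, of which 74 came from the name prefixes (10 H1, 17 H2A, 19 H2B, 13 H3 and 15 H4) and 7 were the named replacement histones. A temperature-sensitive SV40 T gene keeps these cells dividing, and differentiation was started by a shift to the temperature that switches it off. All 12 libraries share that background. The 4 groups of 3 libraries each received DMSO as the solvent control, or 1 of the inhibitors cyclosporine A (CSA), voclosporin (VCS) and tacrolimus (TAC) at 100 nM, for 24 h. CSA and VCS are cyclic peptides that differ in the side chain of 1 residue, and TAC is a macrolide. The libraries within a group are numbered 1 to 3, and the labels do not say what the numbers stand for, so p-values measure only the spread between these libraries, which may be technical.

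Calcineurin is the calcium-dependent phosphatase that activates the NFAT transcription factors, and all 3 compounds inhibit it. Histones are the proteins around which DNA is wound. Most are encoded by clustered genes whose mRNA is made during DNA synthesis and, as a rule, ends after a conserved stem-loop bound by SLBP instead of in a poly(A) tail. Replacement histones such as H3.3, H2A.Z and macroH2A are made throughout the cell cycle from ordinary polyadenylated mRNA. A library selected for poly(A) therefore reads the polyadenylated part of the clustered histone transcripts, not their full amount.

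The stem-loop was present in many of the clustered genes that gave counts here, and those that the results turn on are shown first. A stem-loop was searched in every coding transcript of each gene in GENCODE 29, as the 16 letters of the histone stem-loop motif on the sense strand. Where several transcripts matched, the match with the most bases after it was kept. A stem-loop was found in 30 of the 73 genes of the name prefixes with a transcript there. Each sequence is written 5′ to 3′ as DNA, with the match in capitals and 5 bases on each side.
H2BC26: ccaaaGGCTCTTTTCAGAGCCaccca
H2BC21: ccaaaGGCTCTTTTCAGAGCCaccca
H2AC25: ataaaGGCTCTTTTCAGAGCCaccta
H2BC5: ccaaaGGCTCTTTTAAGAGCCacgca
H4C14: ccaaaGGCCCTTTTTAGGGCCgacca
H2BC26 and H2BC21, both H2B genes, carry the same 26 letters, as do H2AC8 and H3C10. The 16 letters of the match alone also occur in other H2B genes, among them H2BC18, H2BC8 and H2BC9. The transcript models go on past the match for 1917 bases in H2BC26, 1729 in H2BC21, 390 in H2AC25, 194 in H4C14 and 39 in H2BC5. Of 72 of the 74 genes of the name prefixes (H1-10, a replacement-type linker histone, is among those left out), 22 had a model that runs 100 bases or more past the stem-loop, and 20 of them passed the filter on low counts. Of 8 genes whose model ends sooner, 5 passed. Of 41 genes with no match in the model, 9 passed, and 33 of these 41 models hold coding sequence only, so the absence of a match there says nothing about the gene.

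The filter kept 19784 genes in all and 43 of the 81 histone genes: 36 from the name prefixes and all 7 replacement genes. Of the 38 that did not pass, H2BC1, H2BC12L and H4C7 had no count in any library and 35 had some. Library totals ran from 28808213 to 36077072 counts, and the 81 genes together took between 0.130% and 0.181% of them. Between 58 and 65 of the 81 genes had a count in each library. By RefSeq, 55 of the 81 genes lie on chromosome 6 and 14 on chromosome 1. Podocyte genes were uneven: ACTN4, SYNPO, CD2AP and PODXL, which serve the cytoskeleton and foot processes, were well above the filter, and NPHS1, the gene for nephrin, had 1 to 11 counts.

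Replacement histones supplied most of the counts. On the scale of CPM (counts scaled to library size) per kilobase of the longest coding transcript, averaged over the 12 libraries, H2AZ1, the main H2A.Z gene, stood first at 395, followed by the H3.3 genes H3-3A at 119 and H3-3B at 110. MACROH2A1, a macroH2A gene linked to silent chromatin, stood at 78.3. H2AX, whose protein is phosphorylated at DNA breaks, stood at 61.3 and H2AZ2 at 44.0. The linker histone H1-10 stood at 34.1 and MACROH2A2 at 7.28. Among the 72 genes, H2BC12 stood first at 53.7 and H1-2 next at 24.6. Both values rest on models with coding sequence only, so both lengths are uncertain. For H2BC12, 13.7% of the model's 31-base words occur in no other gene of GENCODE 29, so its share of reads is uncertain too.

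**Figure D1:**
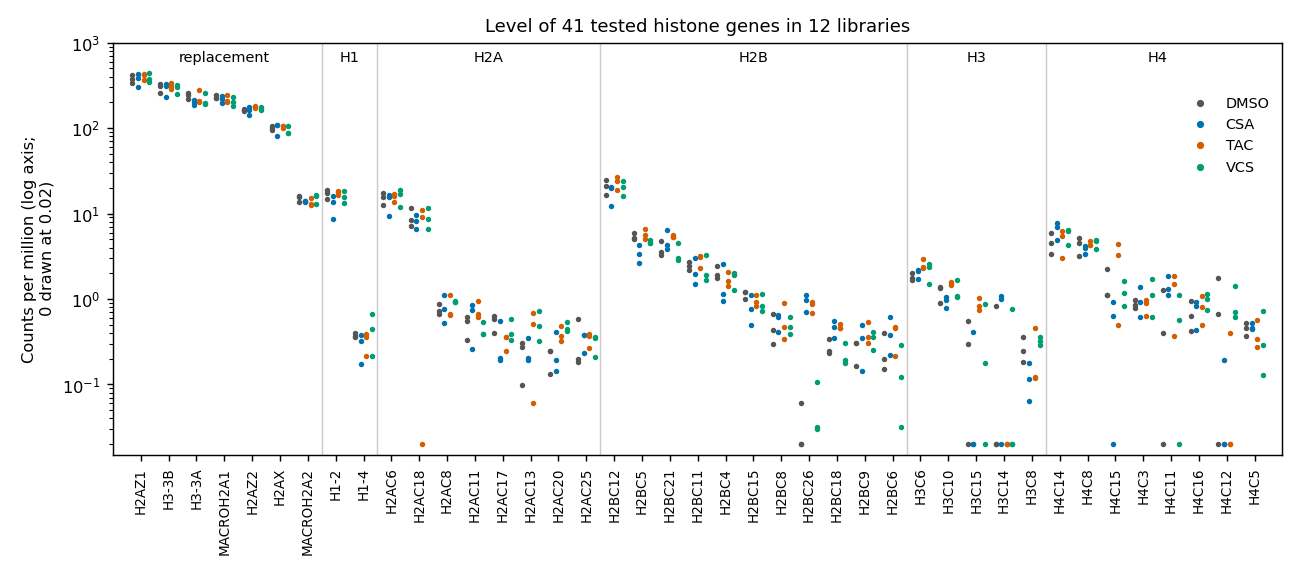
Level of 41 of the 43 tested histone genes, in CPM on a log axis, with 1 point per library (12 per gene), coloured by group; a value of 0 is drawn at 0.02. The replacement genes other than MACROH2A2 lie above all others shown, and H2BC12, H1-2, H2AC6 and MACROH2A2 come next by mean level. The genes with points at the bottom edge are H2BC26 and members of pairs that share sequence.

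The levels of the replacement histones lay close together across the 4 groups. H2AZ1 gave 376, 415 and 339 CPM in the DMSO libraries, 428, 389 and 304 under CSA, 422, 434 and 370 under TAC, and 379, 445 and 345 under VCS, so all groups overlap. The log2 fold changes of H2AZ1 against DMSO were -0.01 (SE 0.14) under CSA, 0.12 (SE 0.14) under TAC and 0.05 (SE 0.14) under VCS. H3-3A gave 218, 246 and 260 CPM in DMSO and 204, 211 and 185 under CSA. Those 2 groups did not overlap, but the log2 fold change of -0.27 (SE 0.14) had an adjusted p of 0.939. H3-3B, the second H3.3 gene, did not share this: its log2 fold change under CSA was -0.03 (SE 0.14), with overlapping groups. The other replacement genes, H2AZ2, H2AX, MACROH2A1 and MACROH2A2, had log2 fold changes against DMSO between -0.17 (MACROH2A1 under VCS, SE 0.11) and 0.10 (H2AZ2 under TAC, SE 0.09). For H2AZ2 the TAC libraries (172.9 to 179.8 CPM) lay wholly above the DMSO libraries (159.1 to 169.7). None of the 7 passed in any of the 6 comparisons. H1-10 had log2 fold changes against DMSO between -0.15 (VCS, SE 0.16) and 0.00 (CSA, SE 0.16).

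A single histone gene passed the test, in 2 of the 6 comparisons, and it had few counts. H2BC26 (ENSG00000196890), an H2B gene that RefSeq places on chromosome 1 at 228458103 to 228458558 (GRCh38.p14), away from the large cluster on chromosome 6, had 0, 2 and 0 counts in the DMSO libraries. In CSA it had 24, 35 and 34 counts, in TAC 29, 23 and 30, and in VCS 1, 1 and 3. All 6 CSA and TAC libraries lie above all 6 DMSO and VCS libraries. In CPM the levels were 0.021 ± 0.036 in DMSO, 0.935 ± 0.209 under CSA, 0.827 ± 0.127 under TAC and 0.057 ± 0.044 under VCS (SD, n = 3 each).

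Against DMSO, H2BC26 rose under CSA with a log2 fold change of 5.25 (SE 0.68, edgeR adjusted p = 0.0306) and under TAC with 5.07 (SE 0.68, edgeR adjusted p = 0.0174). As ratios of the counts summed over 3 libraries, these are 44.6 (95% counting interval 11.99 to 373) and 39.5 (10.6 to 332). The intervals are wide because the DMSO libraries hold 2 counts in all, and they cover counting error only. H2BC26 is thus 1 of the 43 histone genes called higher under CSA, where 0.00505% of all tested genes were called higher. It is also 1 of 43 called higher under TAC, where the share was 0.0253%. Both shares include H2BC26, which was the only gene called higher under CSA, and the histone genes were chosen with earlier results known. No histone gene was called lower in either, against 0.00505% and 0.0101% of all genes. In either direction 0.0101% and 0.0354% of all genes were called. In fits that leave out 1 of the 12 libraries the call held in 3 of 12 for CSA (adjusted p from 0.0170 to 0.270, log2 fold change from 4.72 to 7.92) and in 7 of 12 for TAC (0.0110 to 0.107, from 4.55 to 7.75). The upper ends are without DMSO 2, the only DMSO library with a count, so they depend on the prior count and are no bounds. It was lost for both without DMSO 1, DMSO 3 or any TAC library, and for CSA also without any CSA library or VCS 1.

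In VCS the log2 fold change of H2BC26 was 1.24 (SE 0.99, 95% interval -0.89 to 3.37, edgeR adjusted p = 0.963). It ran from 0.50 without VCS 3 to 3.91 without DMSO 2, where the DMSO libraries left have no count, and was called in none of the 12 fits. No histone gene was called in VCS against DMSO by edgeR or by DESeq2, where edgeR called 0.00505% of all genes in either direction. The direct comparisons of the inhibitors, 3 pairs, put H2BC26 higher by 4.003 on the log2 scale under CSA than under VCS (SE 0.59, edgeR adjusted p = 0.0846) and by 3.83 under TAC than under VCS (SE 0.60, edgeR adjusted p = 0.0538). The count ratios were 17.2 (7.10 to 54.1) and 15.2 (6.27 to 48.1). Neither passes the threshold of 0.05 across all genes in the chosen edgeR fit. TAC against VCS passed with the replicate number as a block (adjusted p = 0.0280), and in DESeq2 both passed (adjusted p = 0.0005 for CSA and 0.0009 for TAC). CSA and TAC differed by 0.18 (SE 0.42, edgeR adjusted p = 0.958), with a count ratio of 1.13 (0.829 to 1.54).

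**Figure D2:**
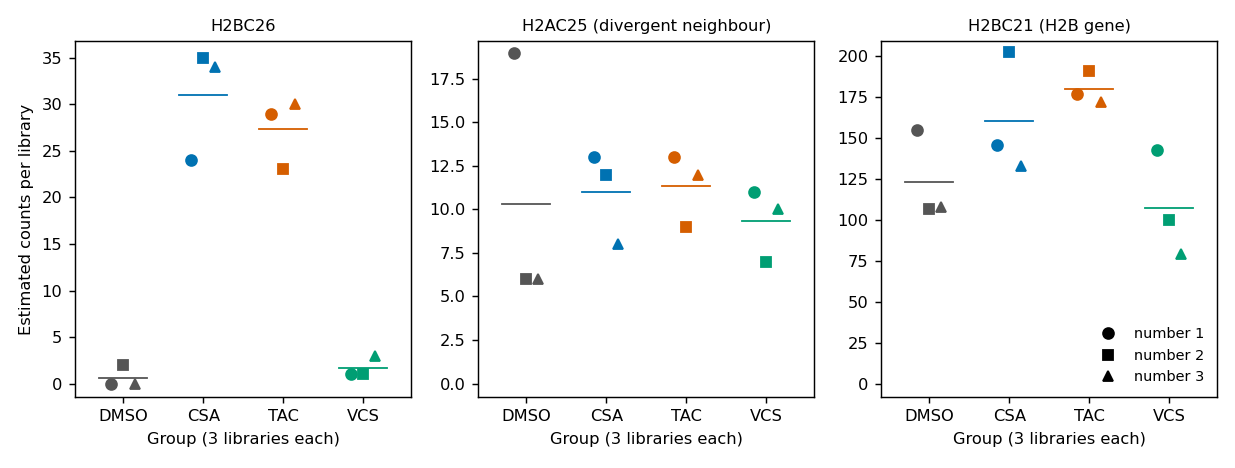
Estimated counts per library (vertical axes, linear and separate for each gene) of H2BC26, its neighbour H2AC25 and the H2B gene H2BC21 in the 4 groups; marker shapes give the library number and lines the group means. H2BC26 has 23 to 35 counts in every CSA and TAC library and 0 to 3 in every DMSO and VCS library, while H2AC25 has 6 to 19 with overlapping groups.

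Most of the sequence of H2BC26 is its own: 77.7% of the 31-base words of its transcript model (2364 bases) occur in no other gene of GENCODE 29. Its closest match, the pseudogene H2BC27P, shares 8.09% of them and had 0 counts in all 12 libraries. A count of 0 does not show where shared reads came from. The annotation behind the counts is not given, and how reads were placed was not examined. Where along the model the reads fell cannot be read from counts per gene. H2AC25, an H2A gene, lies head to head with H2BC26, with 229 bases between the 2 genes, so that they share the region between their starts. H2AC25 had 19, 6 and 6 counts in DMSO, 13, 12 and 8 under CSA, 13, 9 and 12 under TAC, and 11, 7 and 10 under VCS, and all groups overlap. Its count ratios against DMSO were 1.02 (0.606 to 1.72) under CSA, 1.06 (0.631 to 1.78) under TAC and 0.938 (0.542 to 1.62) under VCS, and its log2 fold changes ran from -0.07 to 0.09. The nearby genes TRIM11, TRIM17 and RNF187 were not called against DMSO either, with log2 fold changes between -0.55 (TRIM17 under TAC, SE 0.44) and 0.23 (RNF187 under CSA, SE 0.16).

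The promoter windows of RefSeq (GRCh38.p14) show what the region between H2BC26 and H2AC25 holds. That of H2BC21, an H2B gene among several with the same stem-loop match, is set beside it. Below are the 250 bases before each gene's start, 5′ to 3′ on the gene's own strand, with CCAAT and its reverse complement ATTGG in capitals. The windows are chr1:228457853-228458102 on the plus strand for H2BC26 and chr1:149886683-149886932 on the minus strand for H2BC21.
H2BC26: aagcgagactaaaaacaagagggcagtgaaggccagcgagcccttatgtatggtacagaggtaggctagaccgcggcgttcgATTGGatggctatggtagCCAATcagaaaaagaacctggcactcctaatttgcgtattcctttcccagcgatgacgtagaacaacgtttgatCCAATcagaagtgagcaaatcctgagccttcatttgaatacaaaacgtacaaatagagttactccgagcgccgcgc
H2BC21: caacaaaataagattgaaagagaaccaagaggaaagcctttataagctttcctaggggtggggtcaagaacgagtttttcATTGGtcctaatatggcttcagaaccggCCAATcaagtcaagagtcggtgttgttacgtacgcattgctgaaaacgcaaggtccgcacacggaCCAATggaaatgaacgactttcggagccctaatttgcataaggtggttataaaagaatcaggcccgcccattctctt
Each holds CCAAT 3 times on either strand. In windows of 300 bases (250 before to 50 after the start), CCAAT was present in 18 of 18 H2B promoters with an entry and in 35.7% of all 27305 promoters. The octamer ATTTGCAT, an element of H2B promoters bound by OCT1, was present on either strand in 14 of 18 H2B promoters and in 1.80% of all. TATAAA was present in 12 of 18 and in 11.95% of all. The H2BC26 window has neither the exact octamer nor TATAAA. These are matches of letters, not sites in use.

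Most tested airway and alveolar markers were lower under CSA and TAC, opposite to H2BC26. Of 8 markers, 7 were tested and none was at 0 in all libraries. Under CSA and under TAC, 6 had log2 fold changes below 0, and the 1 above 0 had an unadjusted edgeR p under 0.05. The summed level of the markers was 21.5 to 42.6 CPM in DMSO, 12.5 to 20.3 under CSA, 15.5 to 21.01 under TAC and 18.8 to 55.9 under VCS. VCS 3, at 18.8 CPM, lay within the CSA and TAC ranges. SFTPA1, a lung surfactant gene of that list, was at 3.04 to 4.26 CPM in DMSO and 2.11 to 4.74 under VCS, and at 0.12 to 0.26 under CSA and 0.03 to 0.36 under TAC. It was the 1 called gene of the 7 tested, lower under CSA and under TAC against DMSO. Of all genes, 0.00505% and 0.0101% were called lower there, shares that include SFTPA1. Against VCS, 1 marker of that list was called lower under CSA and 1 under TAC. There, 0.0101% and 0.0253% of all genes were called in either direction. SFTPB of the same list instead had a positive log2 fold change of 0.76 (SE 0.32) under CSA against DMSO. The 4 endothelial markers summed to 3.73 to 8.51 CPM in DMSO, 1.51 to 4.43 under CSA, 1.75 to 5.92 under TAC and 3.54 to 7.65 under VCS, and none was called. Of 4 leukocyte markers, CD3E and CD79A stayed at or below 10 counts in every library, and the list summed to 67.2 to 76.4 CPM in DMSO, 67.4 to 88.9 under CSA, 54.8 to 76.8 under TAC and 73.2 to 76.8 under VCS. The part of these markers in the H2BC26 result was not tested.

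No other histone gene passed, although several groups of libraries did not overlap. Against DMSO, the CSA libraries lay wholly above or below the DMSO libraries for 6 of 43 histone genes, where 9.87% of all genes did. The TAC libraries lay wholly above for 9 of 43, where 5.99% of all genes did, and wholly below for 1 of 43, where 6.44% did. For VCS it was 4 of 43 in either direction, against 7.48% of all genes. At an unadjusted p under 0.05 there were 4 of 43 under CSA (3.75% of all genes), 1 under TAC (4.65%) and 1 under VCS (3.27%). These tallies hold single copies that share their sequence with another histone gene, described below. They are H4C15 (by overlap) and H4C12 (by p) under CSA, and H3C15 (by overlap) under TAC. The median log2 fold change of the 43 genes was -0.02 under CSA, 0.10 under TAC and 0.00 under VCS, beside 0.00 over all genes in each. Signs were mixed: 19 of 43 were above 0 under CSA, 29 under TAC and 22 under VCS.

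**Figure D3:**
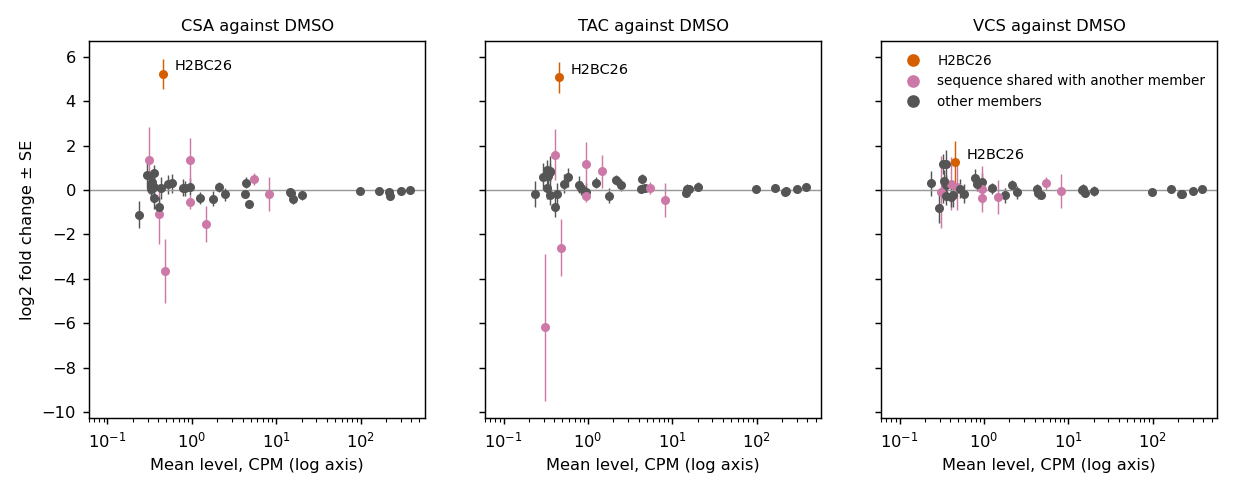
Log2 fold change against DMSO with its SE (vertical axis) by mean level in CPM (log axis) for 41 of the 43 tested histone genes, with 1 panel per inhibitor. H2BC26 stands at 5.25 under CSA, 5.07 under TAC and 1.24 under VCS; the points beyond 2 on either side of 0, apart from H2BC26, belong to members that share their sequence with another member.

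Among the other H2B genes, H2BC5, H2BC18 and H2BC21 had the smallest p-values against DMSO. H2BC5, a clustered H2B gene, was at 5.17, 5.94 and 5.01 CPM in DMSO, 4.32, 3.34 and 2.67 under CSA, 6.62, 5.64 and 5.01 under TAC, and 4.90, 4.51 and 4.54 under VCS. Each CSA value lies below every other library. Its log2 fold change was -0.64 (SE 0.18, edgeR adjusted p = 0.939) in CSA against DMSO and -0.74 (SE 0.18, edgeR adjusted p = 0.494) in CSA against TAC, so neither passed. H2BC21 was at 4.71, 3.29 and 3.56 CPM in DMSO, 4.29, 6.46 and 3.85 under CSA, 5.35, 5.67 and 5.28 under TAC, and 4.58, 3.03 and 2.83 under VCS. All TAC libraries were above all DMSO and VCS libraries. The log2 fold changes were 0.49 (SE 0.23, edgeR adjusted p = 0.920) in TAC against DMSO and 0.64 (SE 0.23, edgeR adjusted p = 1.000) in TAC against VCS.

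H2BC18, another H2B gene on chromosome 1, was at 0.24, 0.34 and 0.23 CPM in DMSO, 0.47, 0.35 and 0.55 under CSA, 0.45, 0.50 and 0.46 under TAC, and 0.19, 0.30 and 0.18 under VCS. As with H2BC26, all CSA and TAC values lie above all DMSO and VCS values in CPM, though by a small margin. H2BC18 had 5 to 19 counts per library. The highest DMSO library and the lowest CSA library both had 11 counts, so their separation (0.34 and 0.35 CPM) comes only from library scaling. H2BC18 has 68.6% of its words to itself and shares 15.4% with its closest match. Its log2 fold changes against DMSO were 0.75 (SE 0.37) under CSA, 0.79 (SE 0.37) under TAC and -0.26 (SE 0.40) under VCS, and none passed. H2BC12 had log2 fold changes against DMSO of -0.24, 0.16 and -0.04 (SE 0.22 each) under CSA, TAC and VCS.

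Among the H1, H2A and H4 genes none was called. H1-2, a clustered linker histone gene, was at 17.4, 18.9 and 14.9 CPM in DMSO and 16.1, 13.6 and 8.61 under CSA, with overlapping groups and a log2 fold change of -0.42 (SE 0.19, edgeR adjusted p = 0.939). H2AC6 had log2 fold changes of -0.13, 0.05 and 0.07 (SE 0.21 each) under CSA, TAC and VCS, and H4C8 of -0.18, 0.05 and 0.06 (SE 0.19 each). H2AC20, an H2A gene with a mean of 0.330 CPM, was at 0.24, 0.25 and 0.13 CPM in DMSO and 0.45, 0.42 and 0.54 under VCS. These 2 groups did not overlap, and the log2 fold change was 1.16 (SE 0.45, edgeR adjusted p = 0.963). Other low H2A and H4 genes named by their p were H2AC13 at 1.16 (SE 0.66) and H4C16 at 0.53 (SE 0.40) under VCS, and H2AC17 at -0.74 (SE 0.45) under TAC. None of these passed, and 87.1% of the 31-base words of H2AC17 also occur in H3C12 and 63.8% of those of H2AC13 in H2AC14, so their counts are uncertain. H2AC20 has 49.4% of its words to itself and shares 40.0% with H2AC19.

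Between inhibitors, the remaining histone genes gave no call in edgeR. In CSA against TAC, 6 of 43 lay wholly lower under CSA (6.74% of all genes) and none wholly higher (6.84%), 5 had an unadjusted p under 0.05 (7.52% of all genes), and edgeR and DESeq2 called none, where edgeR called 0.0303% of all genes. In CSA against VCS, 7 of 43 did not overlap (5.85%), and edgeR called none of 43 and 0.0101% of all genes. In TAC against VCS, 6 of 43 did not overlap (8.77%), and edgeR called none of 43 and 0.0253% of all genes. At an unadjusted p under 0.05 there were 6 of 43 in CSA against VCS (2.54% of all genes), among them H2BC26, H2BC18 and H2BC5. There were 3 in TAC against VCS (3.63%), namely H2BC26, H2BC18 and H2BC21. Single copies that share sequence are again among these tallies. In CSA against TAC they are H3C15 (by overlap), H3C14 and H4C15 (by p). H4C12 is among them in CSA against VCS (by overlap and by p) and in TAC against VCS (by overlap).

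Apart from H2BC26, every log2 fold change beyond 2 in either direction, in any of the 6 comparisons, belonged to a near-identical copy, and none was called once copies were summed. Of the other genes, H3C8, an H3 gene with 99.6% of its words to itself, had -1.11 (SE 0.62) in CSA against DMSO and -1.41 (SE 0.61) in CSA against VCS, and H2BC6 had 1.48 (SE 0.66) in CSA against VCS, and none of these passed; both genes were named after their values were seen. By shared 31-base words, 4 pairs were alike over at least 95% of 1 member: H2AC18 with H2AC19, H3C14 with H3C15, H4C11 with H4C12 and H4C14 with H4C15. All words of H2AC15 also occur in H2BC15, a gene of another family. In all, 10 of the 81 genes had under 5% of their words to themselves. H2AC18 took every count of its pair in 11 libraries, between 184 and 382, and H2AC19 took all 367 in the TAC library numbered 2, where H2AC18 had 0. H3C14 and H3C15 were never both above 0 in 1 library: the counts fell to H3C14 in DMSO 1, CSA 1, CSA 3 and VCS 2, and to H3C15 in the other libraries.

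**Figure D4:**
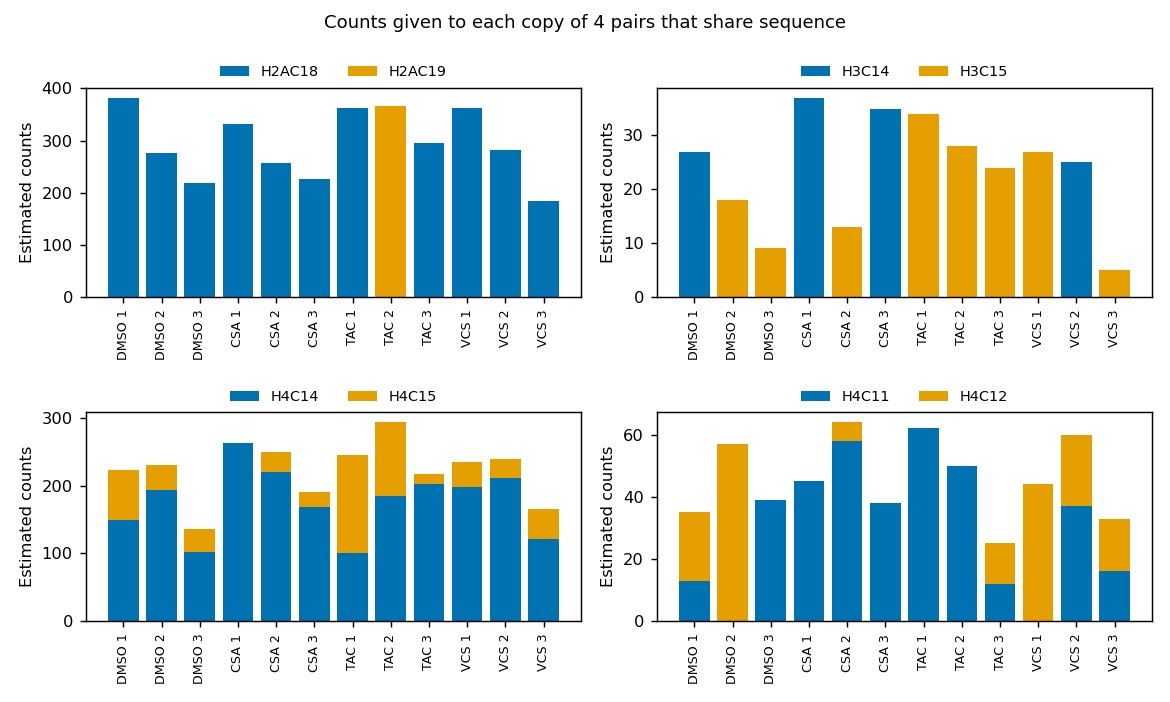
Estimated counts per library (vertical axes, linear) for 4 pairs of histone genes that share sequence, stacked so that the bar height is the pair's sum. The colour switches from library to library within a group, as in H2AC18 and H2AC19 in TAC 2 and in H3C14 and H3C15, while the bars of H2AC18 and H2AC19 stay between 184 and 382.

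H3C14 alone had a log2 fold change of -6.18 (SE 3.32) in TAC against DMSO, from 27, 0 and 0 counts in DMSO and 0 in all TAC libraries, a fitted value that depends on the prior count and is no bound. Summed with H3C15 the counts were 27, 18 and 9 in DMSO and 34, 28 and 24 under TAC, with a log2 fold change of 0.63 (SE 0.51), which has the opposite sign. H4C12 alone had -3.66 (SE 1.44) under CSA, and H4C11 with H4C12 had 0.12 (SE 0.34). H4C14 had 0.50 (SE 0.28) under CSA, and H4C14 with H4C15 had 0.21 (SE 0.20), 0.31 (SE 0.20) and 0.17 (SE 0.20) under CSA, TAC and VCS. H2AC18 with H2AC19 had -0.16, 0.18 and -0.03 (SE 0.22 each). No sum was called in any of the 6 comparisons. For these genes a value of a single copy is not a measurement of that copy.

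Summed over the 72 genes of the name prefixes, the level was 101 ± 14.8 CPM in DMSO, 91.8 ± 20.1 under CSA, 112 ± 13.0 under TAC and 100.3 ± 16.6 under VCS (SD, n = 3 each), and all groups overlap. Within each library number the TAC sum was above the DMSO sum (123.5 and 114, 115.8 and 104.1, 98.1 and 84.8 CPM) and the CSA sum below it (106.3, 100.2 and 68.8 CPM), a difference that was not tested. The 7 replacement genes summed to 1429 ± 70.2, 1355 ± 141, 1463 ± 18.97 and 1378 ± 52.6 CPM. The 72 genes took 5.08% to 7.43% of all histone counts. By family, the H2B genes summed to 37.3 ± 5.89 CPM in DMSO, 33.8 ± 7.59 under CSA, 43.1 ± 6.20 under TAC and 34.9 ± 6.13 under VCS, and the H3 genes ran from 4.38 ± 0.403 in DMSO to 5.70 ± 0.473 under TAC. The H3 sums of the TAC libraries (5.32 to 6.23 CPM) lay above those of DMSO (3.97 to 4.77), a difference that was not tested.

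The sum over the 72 genes was lowest in the library numbered 3 of every group, 84.8 CPM in DMSO, 68.8 under CSA, 98.1 under TAC and 83.6 under VCS, while libraries 1 and 2 ran from 100.2 to 123.5. Single genes followed: 23, 28, 24 and 22 of the 43 tested histone genes were lowest in library 3 of DMSO, CSA, TAC and VCS, where 35.1%, 36.4%, 38.5% and 39.3% of all genes were. The same 4 libraries had the highest mitochondrial share of counts in their groups, 9.68% to 13.4% against 5.82% to 8.12% elsewhere, and its part in this pattern was not tested. H2BC26 did not follow it, with its counts in libraries 3 of 34 under CSA and 30 under TAC beside 24 to 35 and 23 to 29 in the others. Without the 4 libraries numbered 3, H2BC26 was not called (adjusted p = 0.485 under CSA and 0.167 under TAC), with log2 fold changes of 4.73 (SE 0.77) and 4.51 (SE 0.78) from fewer libraries.

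**Figure D5:**
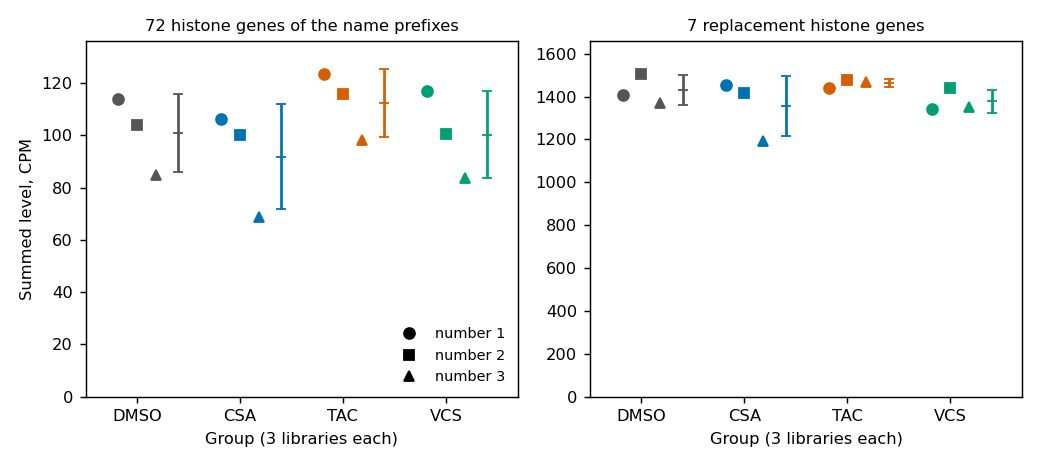
Summed level in CPM (linear axes from 0) of the 72 prefix genes and the 7 replacement histone genes in each library, by group, with marker shapes for the library number and the mean ± SD over 3 libraries beside the points. The triangles, libraries numbered 3, are lowest in each group of the left panel, from 68.8 to 98.1 CPM.

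The genes that serve histone mRNA and DNA synthesis gave no call. All 17 tested genes of histone mRNA 3′ processing and its regulation, among them SLBP, the stem-loop binding protein, UPF1, SYMPK and CSTF3, were without a call in the 3 comparisons with DMSO, where edgeR called 0.0101%, 0.0354% and 0.00505% of all genes, with list medians of -0.04, 0.04 and 0.03 on the log2 scale under CSA, TAC and VCS. SLBP stood at 90.3 to 130 CPM over the 12 libraries. All 19 histone chaperone and exchange genes, among them NAP1L1, NASP, NAP1L4 and SUPT16H, gave none, with medians of -0.01, 0.06 and -0.02. All 22 DNA replication genes gave none, with medians of 0.02, 0.08 and 0.00. PCNA, the sliding clamp of DNA polymerase, stood at 403 to 483 CPM and the cyclin gene CCNA2 at 41.4 to 77.8 CPM, so both transcripts were present in every library, including DMSO. Whether cells were replicating was not measured. Of histone genes outside the naming rule, 4 of the 14 in the table were tested and none was called: H2AJ, an H2A variant, at 21.2 to 28.5 CPM, CENPA, the centromere histone, at 6.56 to 11.1, H3-7 at 1.57 to 4.23 and H3-5 at 0.13 to 0.52.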

How the data were processed

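The data are 12 RNA-seq libraries in 4 groups of 3, taken from the labels. Per the labels the RNA was poly(A)-selected and carried in-line UMIs. Per the submitters' processing notes Salmon and GRCh38 were used; versions and the annotation release are not given in the sources used here, nor is whether UMIs were collapsed or strand was used. The deposited table holds whole numbers per gene, read here to be expected counts that the authors rounded, with no normalization. All columns were mapped to samples. The members and lists were chosen with earlier results of these data known.

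Counts were fitted with edgeR 4.0.16 (limma 3.58.1, R 4.3.3): filterByExpr with a minimum count of 10, TMM scaling, the quasi-likelihood F test on group over all 12 libraries, and Benjamini-Hochberg adjustment over the 19784 genes kept, with a threshold of 0.05; p-values are two-sided. CPM are counts scaled to the TMM-adjusted library size. The SE is the log2 fold change divided by the square root of F. The count ratios have exact 95% intervals. DESeq2 1.42.0 was an alternative, with RLE scaling, no filter, a robust spread, only 2 groups, a replicate block, and fits leaving out libraries; summing copies was added after seeing the data. The fit was tested on simulated data. Same-numbered libraries deviated together (correlations over 0.1 for all 3 numbers) in CSA against DMSO (0.154, 0.103, 0.220), TAC against DMSO (0.313, 0.108, 0.377) and TAC against VCS (0.232, 0.248, 0.532). Each other comparison had a value under 0.1, though all values were positive. VCS against DMSO missed the cut narrowly (0.280, 0.0975, 0.428). The numbers in the labels are the source of this pairing.

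Named genes were those called, H2BC26, the replacement genes, H1-10, the 8 others of highest mean CPM, the 3 of smallest p in each direction against DMSO, and in other lists up to 4 of highest CPM and any called; the genes around H2BC26, copy pairs and some marker genes beyond this were named after their values were seen. Sequence words and motifs were computed in Python 3.11.15 from GENCODE 29 transcripts (80 of 81 genes matched) and RefSeq promoter windows (74 matched). Values of 1 histone gene and 1 podocyte marker are not reported here.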

Additional observations from a re-analysis of the deposited data

How the results depend on the processing

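Calls were few and moved with the settings. RLE scaling and summing the copies changed no count of histone genes called. Without the filter on low counts, 2 histone genes passed in CSA against DMSO, 4 in TAC against DMSO, 4 in CSA against TAC, 2 in CSA against VCS and 4 in TAC against VCS; beyond H2BC26 all of them were H2AC19, H3C14, H3C15, H4C12 or H4C15, which share their sequence with another gene. Fits on only the 2 groups compared gave 0 in CSA and 0 in TAC against DMSO (adjusted p of H2BC26 0.0703 and 0.115, log2 fold changes 5.24 and 5.07), as did the fits without the 4 libraries numbered 3 (0 and 0). DESeq2 called 1 in CSA against VCS and 1 in TAC against VCS, and the replicate block and the robust spread 1 each in TAC against VCS, in each case H2BC26. Against DMSO, H2BC26 stayed called under CSA and TAC in DESeq2 (DESeq2 adjusted p = 0.0068 and 0.0021). It also stayed called with the replicate block (edgeR adjusted p = 0.0286 and 0.0117) and the robust spread (edgeR adjusted p = 0.0217 and 0.0175). Leaving out 1 library gave 0 to 1 histone genes in each of CSA against DMSO, TAC against DMSO, CSA against VCS and TAC against VCS. The log2 fold change of H3C14 in TAC against DMSO ran from -6.75 to 0 when 1 library was left out, and was 0 without DMSO 1, the only DMSO library with counts for it. The replicate block changed no other call of a histone gene; over all genes it gave 6, 41 and 0 calls in CSA, TAC and VCS against DMSO, 65 in CSA against TAC, 6 in CSA against VCS and 41 in TAC against VCS, beside 2, 7, 1, 6, 2 and 5 without it. DESeq2 gave 7, 34, 8, 51, 11 and 36, no filter 86, 131, 69, 87, 70 and 101, and only 2 groups 2, 1, 0, 1, 3 and 0. At 2 counts in DMSO, the size of the H2BC26 fold is bounded by depth.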
